A study of Homo sapiens with 4 samples.

Results

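The genes described here are 10 NF-kappa-B targets and chemokines, chosen by name from the 58735 genes of the deposited RNA-seq table: the ligands CXCL1, CXCL2, CXCL3, CXCL8 and CCL20, the regulators NFKBIA, TNFAIP3, BIRC3 and RELB, and the adhesion receptor ICAM1. All 10 were found, each on a single row. They were read in 4 libraries, all labelled wild type, from HCT116 and LOVO, a pair of human colorectal cancer cell lines. Each line gave 1 library from adherent culture and 1 from spheroids, which are cells grown as floating clumps. The adherent cells carry the treatment label NO, and the spheroids the label 1 mg/ml with no drug named. The study's methods state that cells were kept in RPMI-1640 with serum and that spheroids formed in low-attachment dishes in serum-free DMEM/F12 with B27, N2, bFGF and EGF. Its account of the experiments names the drug as oxaliplatin, with a dose unit of μg/ml where the label has mg/ml. Growth form, medium and drug therefore cannot be told apart, and nothing measures how one culture differs from the next.

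NF-kappa-B is a family of transcription factors (RELA, RELB, REL and the products of NFKB1 and NFKB2) that are held in the cytoplasm by IkB proteins. Signals from receptors of TNF, IL-1 or bacterial products activate the IKK kinases, which mark IkB for destruction, and the freed dimers switch on chemokines, adhesion molecules and survival genes. They also switch on their own inhibitors, so the pathway shuts itself down. In intestinal epithelium and colorectal tumours these chemokines are best known for drawing in neutrophils and other leukocytes.

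The libraries held 15483569 to 20429147 reads on genes. Levels are given as FPKM, the fragments of a gene scaled to its length and to a library size, so they can be compared between genes. The library size behind the deposited values was 0.907 to 1.085 times the reads on genes, depending on the library. A change is the difference of log2(FPKM + 1), which understates changes of low genes, and ratios without the added 1 are given with 95% exact (Clopper-Pearson) counting intervals, which cover counting error only. In the libraries labelled LOVO, several epithelial markers of a colorectal line were at or near 0, while others were not. EPCAM, an epithelial surface protein, was at 85.6 and 79.3 FPKM in HCT116 (adherent first, as in all pairs of values below), but at 0.930 and 1.5 in the adherent and spheroid libraries labelled LOVO. CDH1 (E-cadherin) was at 31.1 FPKM in both HCT116 libraries and at 0.117 and 0.00805 in those labelled LOVO, and CDX2, the intestinal transcription factor, had 0 reads in both of the latter. Of 10 epithelial markers, 6 and 7 reached 1 FPKM in the HCT116 libraries and 3 and 4 in those labelled LOVO. The highest of them, the keratin KRT19, was at 808 and 543 FPKM in HCT116 and at 14.9 and 4.85 in the LOVO-labelled libraries. The keratins KRT8 and KRT18 stayed high there, KRT8 at 189 and 81.6 FPKM (571 and 418 in HCT116) and KRT18 at 122 and 98.8 (253 and 206 in HCT116). KRT20, whose FPKM averaged 1 or more over the libraries only through HCT116 spheroids, was at 0.930 and 7.45 FPKM in HCT116. DCN and LUM, proteoglycans of connective tissue, were at 10.4 and 31.4 FPKM in the adherent LOVO-labelled cells and at 9.97 and 50.4 in their spheroids, against at most 0.0198 in HCT116. The 7 fibroblast markers, of which these are a part, summed to 5.61 and 16.1 FPKM in HCT116 and to 54.0 and 72.8 in the LOVO-labelled libraries, but not all followed. COL1A1 was at 5.51 and 15.5 FPKM in HCT116 and at 9.89 and 6.10 in the LOVO-labelled libraries, and COL1A2 and PDGFRA were at most at 0.0153 FPKM in the latter. These libraries are called LOVO-labelled below, and which cells they came from was not tested.

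Short stretches of the promoters are shown first, because NF-kappa-B is known to act through short promoter sites of this kind. RefSeq promoters (GRCh38.p14, 250 bases before to 50 bases after the transcription start) were listed for 9 of the 10 genes, all but RELB. Both strands were searched for the letters GGAANTNCC, a core shared by many kappa-B sites. These letters were in 8 of the 9 promoters, against 5.05% of 35116 promoters of the same length, and the exception was CCL20. Its window held a match to the longer kappa-B consensus, which was found in 7 of the 9 promoters and in 5.91% of all of them and which overlaps the core motif in 6 of them. The core was written with known kappa-B sites in mind, so these shares are a description and not a test. Each stretch is given 5′ to 3′ on the strand of the gene, with the match in capitals.
CXCL1: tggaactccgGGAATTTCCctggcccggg
CXCL2: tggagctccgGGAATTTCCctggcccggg
CXCL3: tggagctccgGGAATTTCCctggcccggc
CXCL8: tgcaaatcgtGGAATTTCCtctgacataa
CCL20: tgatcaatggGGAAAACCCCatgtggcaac
NFKBIA: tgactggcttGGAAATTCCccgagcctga
TNFAIP3: aaagtcccgtGGAAATCCCcgggcctaca
BIRC3: tttgggtcatGGAAATCCCcgagtgggtt
ICAM1: gctttagcttGGAAATTCCggagctgaag

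CXCL1, CXCL2, CXCL3 and CXCL8 carried the same letters in capitals, whose first base lies between positions -91 and -77 relative to the RefSeq start. The capitals begin at position -199 in BIRC3 and at position -186 in ICAM1. The CXCL1 match lies at chr4:73869315-73869323 on the plus strand and the CXCL2 match at chr4:74099264-74099272 on the minus strand. The CXCL3 match lies at chr4:74038759-74038767 on the minus strand and the CXCL8 match at chr4:73740478-73740486 on the plus strand. A match in these letters does not show that the site was bound in these cells.

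Among the ligands, CXCL8 (interleukin-8, the main neutrophil attractant) had the largest log2(FPKM + 1) changes, in opposite directions in the 2 lines. Its gene (GRCh38 chr4:73740506-73743716, plus strand) was at 32.0 and 7.07 FPKM in HCT116 and at 0.417 and 245 FPKM in LOVO-labelled cells, from 1481, 270, 17 and 11228 reads. HCT116 spheroids were therefore 4.52-fold lower than their adherent cells, with a log2 ratio of -2.18 (interval -2.37 to -1.99). LOVO-labelled spheroids were 589-fold higher than theirs (interval 367 to 1011), which rests on the 17 reads of the adherent library. By the log2(FPKM + 1) change of 7.44, CXCL8 stood in place 2 among the 14429 genes whose FPKM averaged 1 or more. In LOVO-labelled spheroids its level was in place 88 of all genes in the table. Since these are bulk libraries, fewer cells with a transcript and less of it per cell cannot be told apart.

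CXCL2 (chr4:74097035-74099293, minus strand), a neutrophil attractant that signals through CXCR2, changed with the same signs as CXCL8. It was at 1.77 and 0.714 FPKM in adherent and spheroid HCT116 cells, and at 8.36 and 42.5 FPKM in the adherent and spheroid LOVO-labelled libraries. Its log2 ratio, spheroids over adherent, was -1.31 in HCT116 (interval -2.16 to -0.51) and 2.34 in LOVO-labelled cells (interval 2.14 to 2.56). CXCL3 (chr4:74036589-74038807, minus strand), a close paralog, was at 1.64 and 0.671 FPKM in HCT116 and at 0.754 and 2.67 in LOVO-labelled cells, adherent first. Its log2 ratios were -1.29 (interval -2.0 to -0.62) and 1.82 (interval 1.23 to 2.45).

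CXCL1 (chr4:73869393-73871242, plus strand), another neutrophil attractant, was barely detected in the LOVO-labelled libraries. It was at 7.42 and 6.25 FPKM in HCT116, but had 0 reads in adherent LOVO-labelled cells and 1 read in their spheroids. In HCT116 the interval of the log2 ratio ran from -0.57 to 0.07, so that no change was detectable at this depth, and the LOVO-labelled pair stood below the floor of 3 reads, so that no fold is given. CXCL1, CXCL2 and CXCL3 lie near each other and share sequence, up to 178 bases between the transcripts of CXCL2 and CXCL3 and 77 between those of CXCL1 and CXCL2. The read length is not given in the sources used here, so reads of these paralogs may not be fully separate.

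CCL20 (chr2:227805739-227817564, plus strand), which attracts CCR6-bearing lymphocytes and dendritic cells, was low throughout and did not pass the filter on low values. Its FPKM was 0.985 and 0.187 in adherent and spheroid HCT116 cells and 0.0700 and 1.34 in adherent and spheroid LOVO-labelled cells, from 32, 5, 2 and 43 reads. The log2 ratio was -2.40 in HCT116 (interval -4.12 to -1.03) and 4.26 in LOVO-labelled cells (interval 2.32 to 7.35). The order of the libraries was thus that of CXCL2 and CXCL3 within each line, with wide intervals.

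**Figure D1:**
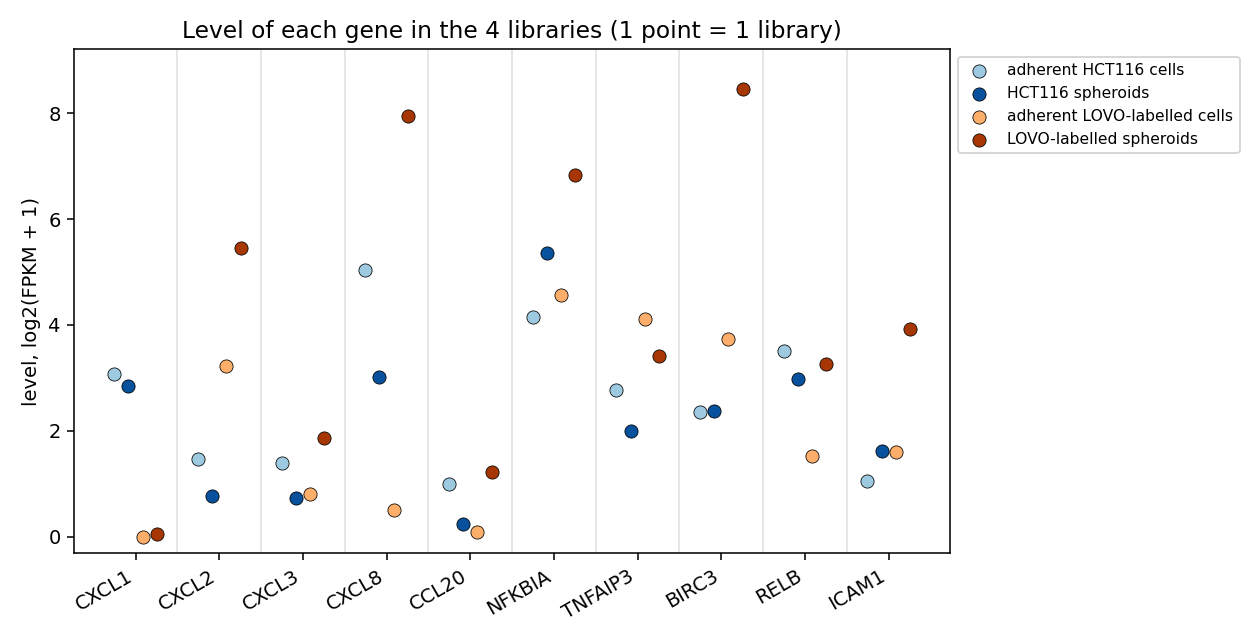
Level of each of the 10 genes on the log2(FPKM + 1) scale (y axis) in the 4 libraries, 1 point for each library and no error bars, since each condition had 1 library. LOVO-labelled spheroids are the highest point for 7 genes, CXCL1 sits at or near 0 in both LOVO-labelled libraries, and BIRC3 and CXCL8 reach the highest levels.

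The regulators differed among themselves. NFKBIA (chr14:35401511-35404749, minus strand) encodes IkB-alpha, the inhibitor that NF-kappa-B induces to end its own activity, and it was higher in the spheroids of both lines. Its FPKM was 16.7 and 40.3 in adherent and spheroid HCT116 cells and 22.7 and 113 in adherent and spheroid LOVO-labelled cells. Both spheroid libraries lay above both adherent libraries. The log2 ratio was 1.27 in HCT116 (interval 1.15 to 1.39) and 2.31 in LOVO-labelled cells (interval 2.21 to 2.41).

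TNFAIP3 (chr6:137867188-137883312, plus strand), a ubiquitin-editing enzyme that also damps the pathway, was lower in the spheroids of both lines. It was at 5.85 and 2.99 FPKM in adherent and spheroid HCT116 cells, with a log2 ratio of -0.97 (interval -1.18 to -0.75). In LOVO-labelled cells it was at 16.3 and 9.67 FPKM, with a log2 ratio of -0.75 (interval -0.87 to -0.63). Both LOVO-labelled libraries lay above both HCT116 libraries. TNFAIP3 and NFKBIA, both feedback inhibitors with a core motif in the promoter, therefore differed in opposite directions in each line. An antisense gene overlaps 95 of the 5051 exonic bases of TNFAIP3.

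BIRC3 (chr11:102317450-102339403, plus strand), a ubiquitin ligase that protects cells from death signalled by TNF receptors, reached the highest level of the 10 genes in any library. Its FPKM was 4.12 and 4.17 in HCT116 and 12.3 and 349 in LOVO-labelled cells. In HCT116 the libraries did not differ beyond counting error, with a log2 ratio of 0.02 (interval -0.15 to 0.19), and the log2(FPKM + 1) change lay between -0.01 and 0.05 over the alternatives. In LOVO-labelled cells spheroids were 28.5-fold higher (interval 27.1 to 29.9). BIRC3 took 0.276% of all reads of the LOVO-labelled spheroid library, where its level stood in place 60. A stretch of 60 bases is shared with its neighbour BIRC2, which was at 21.2 and 26.3 FPKM in adherent and spheroid LOVO-labelled cells.

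RELB (chr19:45001430-45038198, plus strand), the NF-kappa-B subunit of the alternative pathway, was at 10.4 and 6.88 FPKM in adherent and spheroid HCT116 cells and at 1.87 and 8.61 FPKM in adherent and spheroid LOVO-labelled cells. The log2 ratio was -0.60 in HCT116 (interval -0.79 to -0.41) and 2.20 in LOVO-labelled cells (interval 1.89 to 2.52). The lowest library was that of adherent LOVO-labelled cells, and the other 3 lay between 6.88 and 10.4 FPKM.

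ICAM1 (chr19:10270835-10286615, plus strand), the cell surface ligand that leukocyte integrins bind, was higher in the spheroids of both lines. It was at 1.07 and 2.09 FPKM in adherent and spheroid HCT116 cells and at 2.03 and 14.2 FPKM in adherent and spheroid LOVO-labelled cells. The log2 ratio was 0.96 (interval 0.55 to 1.38) in HCT116 and 2.81 (interval 2.55 to 3.07) in LOVO-labelled cells. Of its 3706 exonic bases, 876 overlap exons of 2 genes on the opposite strand, and whether the counting used strand is not given in the sources used here, so ICAM1 may hold some of their reads.

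**Figure D2:**
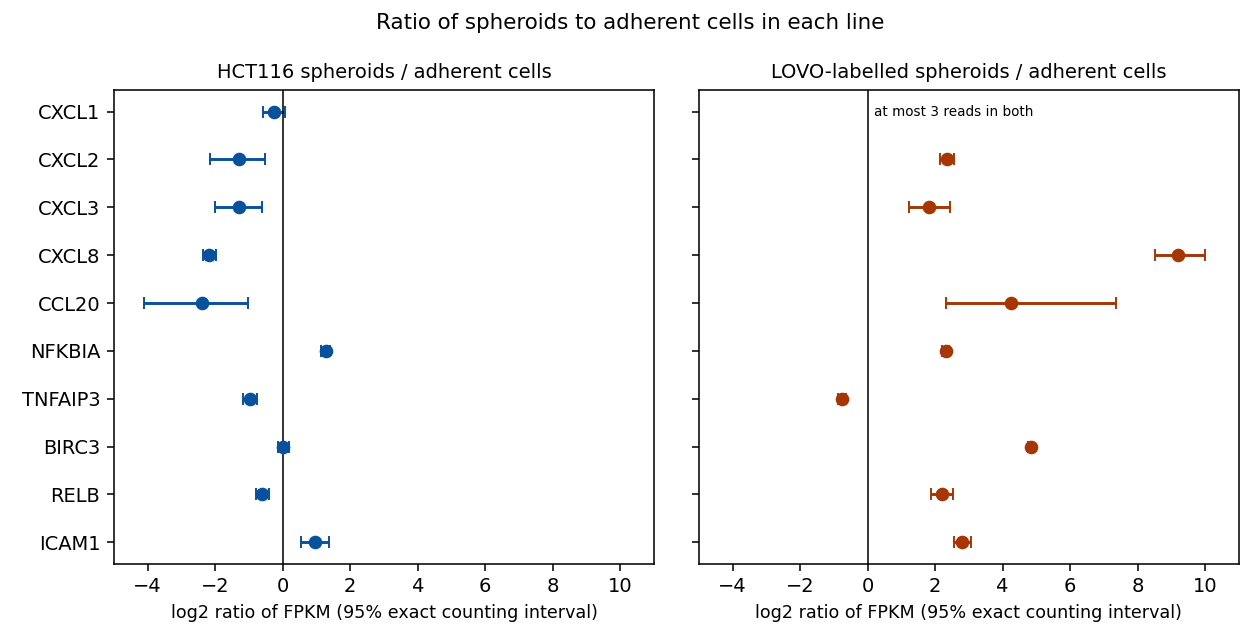
Log2 ratio of FPKM in spheroids to adherent cells (x axis) for each gene, in HCT116 on the left and LOVO-labelled cells on the right, with bars for the 95% exact counting interval. In HCT116, 6 intervals lie below 0 and 2 above it, while in LOVO-labelled cells 8 lie above 0 and 1 below it, and no ratio is drawn for CXCL1, which had at most 3 reads in both libraries.

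At this depth a counting interval excludes 0 for many genes, so these counts say little by themselves. Of the 14429 genes compared, 27.2% had an interval above 0 and 35% below it in HCT116, and 32.1% above and 42% below it in LOVO-labelled cells. Counting intervals on opposite sides of 0 in the lines were found for 5 of the 10 genes (CXCL2, CXCL3, CXCL8, CCL20 and RELB) and for 14% of the genes compared. CCL20 failed the filter on low values, so it is not among the genes compared.

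The genes were then counted at a log2(FPKM + 1) change of 2. The size of this threshold is that of the study's methods, which applied it to fold changes of a count model together with a p-value that 1 library per condition does not give here. In HCT116 spheroids 0 of the 10 were past it upwards and 1, CXCL8, downwards, where the background over the 14429 genes compared was 0.201% and 0.506%. CXCL8 passed with a change of -2.03, just beyond the threshold. In LOVO-labelled spheroids 5 of the 10 were past it upwards (CXCL8, BIRC3, ICAM1, NFKBIA and CXCL2) and 0 downwards, against backgrounds of 1.81% and 0.943%. The median change of the 10 genes was -0.60 in HCT116, with -0.03 over all genes compared, and 1.98 in LOVO-labelled cells, with -0.06 over all genes compared. At a change of 1, 1 gene was higher and 1 lower in HCT116 (backgrounds of 2.19% and 3.33%), while in LOVO-labelled cells 7 of the 9 genes compared were higher and 0 lower (8.57% and 7.85%), and CCL20, which failed the filter, was also higher. With 1 library per condition these counts carry no test, and the 10 genes were chosen with earlier results of these data known.

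**Figure D3:**
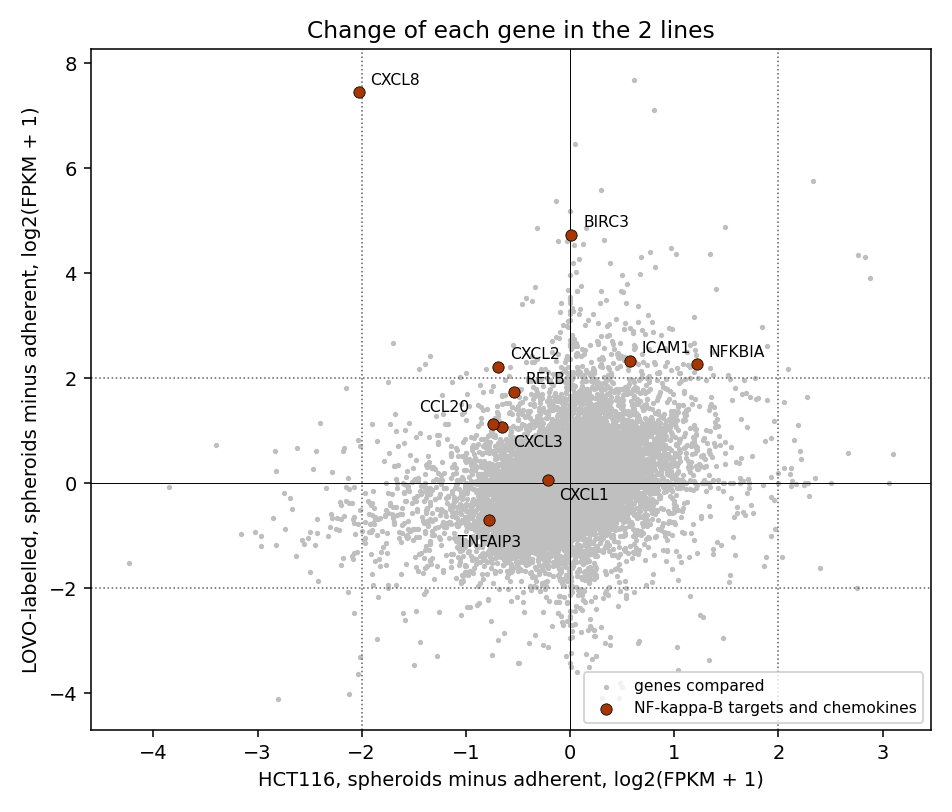
Change from adherent cells to spheroids on the log2(FPKM + 1) scale in HCT116 (x axis) and LOVO-labelled cells (y axis), with grey points for the 14429 genes compared, coloured points for the 10 genes and dotted lines at changes of 2. CXCL8 lies at -2.03 and 7.44, BIRC3 at 0.01 and 4.72, and TNFAIP3 is the one gene of the 10 below 0 in both lines.

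Between the lines, the levels in adherent cells were not those in spheroids. In adherent LOVO-labelled cells 0 of the 10 genes were past a log2 difference of 2 above adherent HCT116 cells and 2 were below it, CXCL8 at -4.54 and CXCL1 at -3.07, against backgrounds of 5.26% and 5.59%. RELB was just inside, at -1.99, and was past it with either smaller pseudocount, with TPM, with TMM-like factors and when centred on the median, between -2.47 and -2.0. CXCL1 was at least 57.5-fold lower in adherent LOVO-labelled cells, with the floor of 3 reads taken for the library at 0. In LOVO-labelled spheroids 4 genes were past the threshold above HCT116 spheroids, against a background of 5.68%. These were BIRC3 at 6.08, CXCL8 at 4.93, CXCL2 at 4.67 and ICAM1 at 2.30. CXCL1 was past it below HCT116 spheroids, at -2.80, where the background was 4.71%. At a difference of 1, 3 genes were higher and 3 lower in adherent LOVO-labelled cells (backgrounds of 17.4% and 16.4%), and 7 were higher and 1 lower in their spheroids (17.7% and 15%). These comparisons share libraries with those of spheroids and adherent cells, so they are not separate evidence. Of 10 epithelial markers, 6 and 7 reached 1 FPKM in the HCT116 libraries and 3 and 4 in the LOVO-labelled ones. What sets the lines apart was not tested.

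With the lines standing in for replicates, limma was fitted to all 14429 genes with cell line as a covariate, which left 1 residual degree of freedom. For spheroids against adherent cells, 0 genes had an adjusted p under 0.05 (0% of the genes tested), and 1545 (10.7%) had an unadjusted p under 0.05. The difference of NFKBIA was 1.74 (standard error 0.34, unadjusted p = 0.0044, limma adjusted p = 0.462), higher in 2 of 2 lines. That of ICAM1 was 1.45 (standard error 0.48, unadjusted p = 0.031, limma adjusted p = 0.462), and that of TNFAIP3 was -0.74 (standard error 0.24, unadjusted p = 0.030, limma adjusted p = 0.462). None of the 9 genes that entered this fit passed the adjustment. CXCL8, with a mean difference of 2.71, had a standard error of 2.19, since its changes in the lines had opposite signs.

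In the same fit the difference between LOVO-labelled and HCT116 libraries over both culture forms had an adjusted p under 0.05 for 3 of these 9 genes, beside 24.7% of all genes tested, and 41.4% of all genes had an unadjusted p under 0.05. CXCL1 was lower by 2.94 on the log2 scale in LOVO-labelled libraries (standard error 0.28, limma adjusted p = 0.0071), in 2 of 2 culture forms. It had 0 and 1 reads in these libraries, so the size of this difference depends on the added 1. The difference was -5.88 with a pseudocount of 0.1 and -8.28 with 0.01. CXCL2 was higher by 3.21 (standard error 0.71, limma adjusted p = 0.036) and TNFAIP3 by 1.38 (standard error 0.24, limma adjusted p = 0.022), each in 2 of 2 culture forms. All 3 lost this call with no filter on low values, where 0 genes passed, and over the alternatives the limma adjusted p ran from 0.0047 to 0.284 for CXCL1, from 0.036 to 0.529 for CXCL2 and from 0.022 to 0.284 for TNFAIP3. CXCL2 also lost it with a pseudocount of 0.01 (limma adjusted p = 0.057) and TNFAIP3 without the covariate (limma adjusted p = 0.077). The culture forms stand in for replicates here. These p-values therefore weigh the size of the line difference against how far it varied between adherent cells and spheroids. That variation was pooled in part with that of all genes, and no spread between cultures is measured.

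The wider pathway was read from lists of the ligands, receptors, signalling proteins and other targets. A gene that reached the filter only through its highest library had to differ, so such genes are given by their values alone, and counts and medians cover the others. Of the 13039 genes that reached a mean FPKM of 1 also without their highest library, 0.146% were higher and 0.522% lower past a change of 2 in HCT116, and 1.39% higher and 0.805% lower in LOVO-labelled cells. Of the 34 further chemokines listed, 12 had 0 reads in every library and 4 passed the filter on low values, 1 of them (CCL2) only through its highest library. Of the other 3, CCL5 and CCL26 were past a change of 2 in LOVO-labelled spheroids and none in HCT116 spheroids. CCL5, a lymphocyte and monocyte attractant, was at 16.7 and 75.4 FPKM in adherent and spheroid LOVO-labelled cells and had 3 reads in each HCT116 library. CCL2, the main monocyte attractant, was at 1.40 and 12.9 FPKM in LOVO-labelled cells, and CCL26, which draws in eosinophils, was at 2.05 and 16.6. In HCT116, CCL26 was also higher in spheroids, at 0.973 and 3.54 FPKM from 14 and 42 reads, while CCL2 had 4 and 7 reads. CXCL16, a chemokine made as a membrane protein, was at 27.4 and 11.5 FPKM in LOVO-labelled cells, a change of -1.18.

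The receptors of these ligands were barely detected. Of 17 chemokine receptors, 2 passed the filter. CXCR1 and CXCR2, which bind CXCL8, had at most 11 reads in any library, and CCR6, the receptor of CCL20, at most 3. CXCR4, the receptor of CXCL12, was at 2.14 and 5.25 FPKM in adherent and spheroid HCT116 cells and at 14.2 and 48.5 in LOVO-labelled cells. ACKR3, an atypical receptor that takes up CXCL12, was at 25.3 FPKM in adherent LOVO-labelled cells and 3.57 in their spheroids, the only listed receptor past a change of 2.

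Upstream of NF-kappa-B, 13 of the 18 listed cytokines and receptors passed the filter, 5 of them only through LOVO-labelled spheroids. Of the other 8, 1 (IL1R1) was past a change of 2 upwards in LOVO-labelled cells and 0 downwards, and 0 were past it in HCT116. The 5 were TNF, LTB, TNFRSF1B, IL1A and IL1B. TNF, the prototype inducer of the pathway, had 3 and 2 reads in adherent and spheroid HCT116 cells, 0 in adherent LOVO-labelled cells and 231 in their spheroids, at least 68.6-fold higher when the floor of 3 reads is taken for the library at 0. LTB (lymphotoxin-beta) likewise had 0 and 138 reads in LOVO-labelled cells, at least 41.0-fold higher. TNFRSF1B, a receptor of TNF, was at 0.148 and 5.17 FPKM in adherent and spheroid LOVO-labelled cells, and IL1R1, the signalling receptor of IL-1, at 0.590 and 5.45. IL18, the highest of the list, was at 40.1 and 9.74 FPKM in LOVO-labelled cells, a change of -1.94. TNF and LTB are also made by leukocytes. PTPRC, the common leukocyte antigen, had at most 2 reads in any library, and the 9 leukocyte markers together summed to 1.77, 2.0, 0.344 and 2.17 FPKM in adherent and spheroid HCT116 cells and in adherent and spheroid LOVO-labelled cells. The highest of these markers in LOVO-labelled spheroids was CD14, at 1.79 FPKM against 0.148 in the adherent cells. PECAM1, an endothelial and leukocyte adhesion protein, was at 0.0359 and 6.35 FPKM in the same libraries, and the 5 endothelial markers summed to 0.327 to 7.94 FPKM over the 4 libraries, with KDR at 0 reads in both LOVO-labelled ones. The part of such cells in the changes was not tested.

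Of 23 genes of the IKK complex and its adaptors, all of which passed the filter, 0 were past a change of 2 in either line, which says little beside a background this low, and the medians were 0.05 in HCT116 and -0.05 in LOVO-labelled cells. IRAK1, a kinase of IL-1 and Toll-like receptor signalling and the highest of the list, was at 130.0 and 63.0 FPKM in adherent and spheroid LOVO-labelled cells, a change of -1.03. Among the NF-kappa-B subunits, RELA was at 21.0, 23.6, 19.8 and 24.2 FPKM in adherent and spheroid HCT116 cells and adherent and spheroid LOVO-labelled cells. NFKB1 was at 4.93, 3.81, 9.04 and 10.0 FPKM in the same order, and REL at 2.39, 1.77, 1.68 and 1.67. NFKB2, which encodes the partner of RELB, was at 66.8, 48.1, 24.2 and 53.7 FPKM, with a change of 1.12 in LOVO-labelled cells, and its adherent LOVO-labelled library was the lowest of the 4, as that of RELB was. The other IkB proteins, 5 in all, had median changes of -0.30 in HCT116 and 1.16 in LOVO-labelled cells. Over all genes that reached the filter without their highest library, the medians were -0.05 and -0.09. In each line, not all counting intervals of these proteins excluded 0. NFKBIB, the highest of these proteins, was at 27.6 and 19.2 FPKM in HCT116 and 15.7 and 14.9 in LOVO-labelled cells.

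Of 40 other genes known as NF-kappa-B targets, 27 passed the filter, 5 of them (IL6, IL32, TNFSF15, SAA1 and CFB) only through LOVO-labelled spheroids. Of the other 22, 3 were past a change of 2 upwards in LOVO-labelled cells (IER3, PTGS2 and SOD2) and 1 downwards (CD83), while in HCT116 0 were past it in either direction. The medians of these 22 were 0.07 in HCT116 and 0.89 in LOVO-labelled cells, beside -0.05 and -0.09 over all genes under the same filter. The cytokine IL6 was at 2.53 FPKM in adherent LOVO-labelled cells and 102 in their spheroids, with 0 and 4 reads in HCT116. IER3, an early response gene linked to survival, was at 29.5 and 882 FPKM in LOVO-labelled cells but at 509.7 and 409 in HCT116, so the HCT116 libraries were high in both forms. PTGS2 (cyclooxygenase-2) was at 4.18 and 99.1 FPKM in LOVO-labelled cells, and SOD2, the mitochondrial superoxide dismutase, at 6.37 and 119.5. TNFSF15, a cytokine of the TNF family, was at 0.0565 and 12.3 FPKM in LOVO-labelled cells, the acute phase gene SAA1 at 2.31 and 25.7, and the complement gene CFB at 1.26 and 21.7. CD83, a surface protein of activated immune cells, was lower instead, at 109.9 FPKM in adherent and 15.8 in spheroid LOVO-labelled cells.

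**Figure D4:**
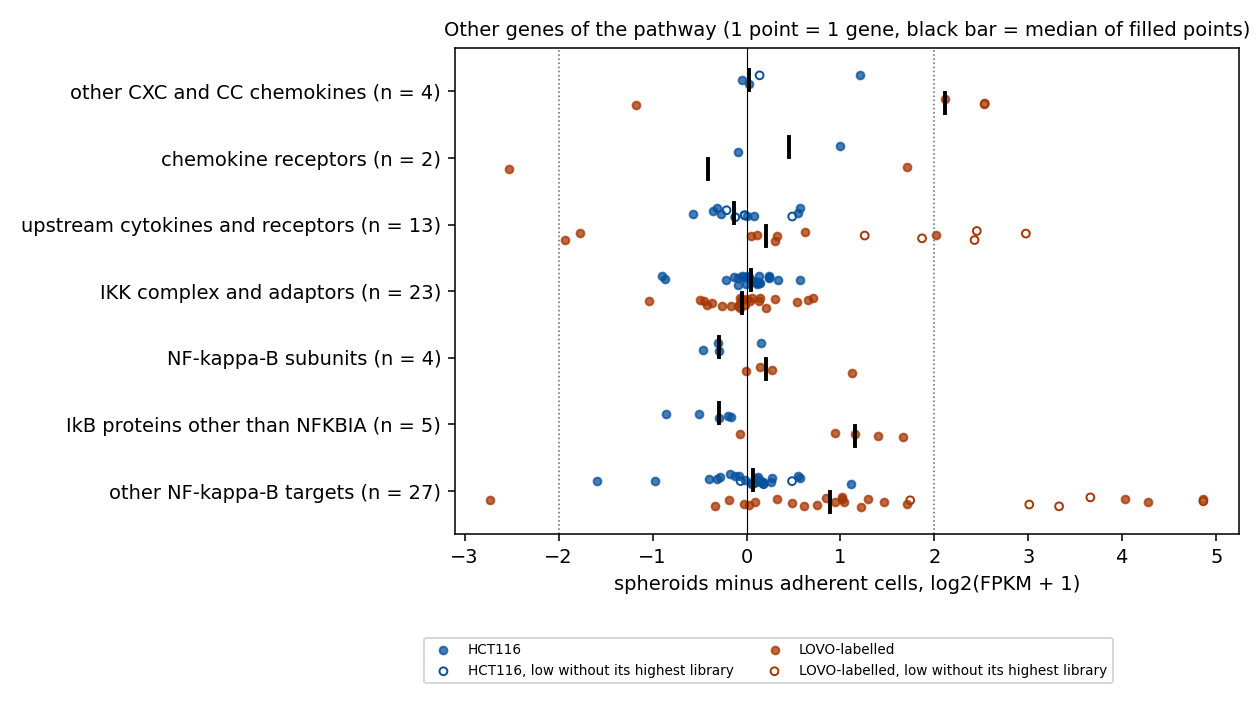
Change from adherent cells to spheroids on the log2(FPKM + 1) scale (x axis) for the genes of 7 pathway lists that passed the filter, in HCT116 and LOVO-labelled cells, with 1 point for each gene, hollow where the gene passed only through its highest library, black bars at the medians of the filled points and dotted lines at changes of 2. The 23 genes of the IKK complex and adaptors cluster around 0 in both lines, while the 22 other targets drawn as filled points have a median of 0.89 in LOVO-labelled cells and 0.07 in HCT116.

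The genes whose pattern over the 4 libraries was closest to the mean centred profile of CXCL1, CXCL2, CXCL3 and CXCL8 were RPL13AP20, SNORA22, RNA5SP450, SERINC2 and AL109615.3, at Euclidean distances of 0.461 to 0.608 on the log2(FPKM + 1) scale. The mean profile was highest in LOVO-labelled spheroids, where CXCL1 had 1 read, while CXCL1 was highest in adherent HCT116 cells. It is therefore not the pattern of each of the chemokines averaged. Of the nearest genes, only SERINC2, which belongs to a family of membrane proteins, is protein-coding. The FPKM of SERINC2 was 33.2, 17.8, 14.8 and 57.3 in adherent and spheroid HCT116 cells and adherent and spheroid LOVO-labelled cells. SNORA22 and RNA5SP450 had at most 13 reads in any library.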

How the data were processed

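The table deposited by the authors holds FPKM values of 58735 genes in 4 libraries, with gene lengths and coordinates. Aligner, counting tool and annotation are not given in the sources used here. The submitters' processing notes name the mouse builds GRCm38 and mm10, while all identifiers of the table were found in GENCODE 29 (GRCh38), with the same coordinates for the 10 genes. Multiplied by the gene length, 100% of the deposited values above 0 were whole multiples of a library step (within 0.01 reads), which gave back reads. These were used for depth, for the floor of 3 reads and for 95% exact counting intervals, and no change is interpreted where both libraries are at or under the floor.

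Comparisons used the 14429 genes whose FPKM averaged 1 or more. This kept 9 of the 10 genes, and all 9 also reached that mean without their highest library. Changes were differences of log2(FPKM + 1), counted past 2 without a test, since each condition had 1 library. The study's methods give this size for fold changes of a count model, with a p-value. A linear model with culture form and cell line was fitted in limma 3.58.1 (R 4.3.3), with a mean-variance trend in eBayes and Benjamini-Hochberg adjustment over all genes. The fit was also run on simulated reads with the same changes in both lines, which does not cover lines that change differently. Python 3.11.15, numpy 2.4.6, pandas 2.3.3, scipy 1.17.1 and matplotlib 3.10.9 were used otherwise.

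The 10 genes, the pathway and marker lists and the tests were chosen with earlier results of these data known. Genes were named from the pathway lists where they were past a change of 2 in a line or had the highest mean FPKM of their list, and all NF-kappa-B subunits were named. BIRC2, CXCL16, CCR6, CXCR1, CXCR2, IL1A, IL1B, IL32 and the markers other than KRT19, CD14, LUM and PECAM1, the highest of their lists, were named after their values were seen. SOD2 was on 2 rows of the table, and the one with the higher mean was used. As alternatives, the pseudocount was set to 0.1 or 0.01, the filter was dropped or raised to a mean FPKM of 5, values were rescaled to TPM, by TMM-like factors or to a median change of 0, the threshold was lowered to 1, and the limma covariate was left out. The library sizes behind the deposited values, relative to the reads on genes, were already close to the TMM-like factors. They were 0.907 against 0.905 in adherent LOVO-labelled cells and 1.085 against 1.096 in HCT116 spheroids. Rescaling by TMM-like factors could therefore move the values little and is hardly a separate check. A filter that leaves out the highest library of each gene was added after seeing the data.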

Additional observations from a re-analysis of the deposited data

Results flagged for a closer look

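For 5 of the 10 genes the changes of the 2 lines had opposite signs and both counting intervals excluded 0, as 14% of all genes compared did. With 1 library per condition this difference was not tested. CCL20, which is among the 5, failed the filter on low values and is not among the genes compared. Of 10 epithelial markers, 3 and 4 reached 1 FPKM in the LOVO-labelled libraries, against 6 and 7 in HCT116. For CXCL8 the change was -2.03 in HCT116 and 7.44 in LOVO-labelled cells, a difference of 9.47 on the log2(FPKM + 1) scale. The difference was 2.91 for CXCL2 (-0.69 and 2.22), and 2.28 for RELB (-0.54 and 1.74). It was 1.87 for CCL20 (-0.74 and 1.13) and 1.72 for CXCL3 (-0.66 and 1.06), the former resting on 2 to 43 reads per library.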

How the results depend on the processing

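The counts of the 10 genes in LOVO-labelled spheroids, 5 higher and 0 lower than adherent cells, came to 4 to 7 higher and 0 lower under the alternatives. The filter on the lowest 3 libraries, added after seeing the data, left all counts of these genes as they were. HCT116 spheroids had 0 genes lower when centred on the median, where CXCL8 fell just short of the threshold, and 1 higher at the threshold of 1. Adherent LOVO-labelled against adherent HCT116 cells gave 1 gene higher in place of 0 with pseudocounts of 0.1 and 0.01 and with TPM, 3 at the threshold of 1, and 1 lower in place of 2 with a mean FPKM of at least 5. LOVO-labelled against HCT116 spheroids gave 7 genes higher in place of 4 at the threshold of 1, and 0 lower in place of 1 with a mean FPKM of at least 5. The stricter filter leaves fewer of the 10 genes to count. By limma the line difference passed for 3564 of 14429 genes (24.7%) and for 1887 of 8146 (23.2%) with a mean FPKM of at least 5. With no filter on low values it passed for 0 of 58735. Between the culture forms limma passed 0 genes under each of the 7 alternatives. The share with an unadjusted p under 0.05 ran from 1.13% to 13.6% of the genes tested, against 10.7% in the fit above. Of the changes of the single genes, 0 of those past the threshold turned sign, and among the others only BIRC3 in HCT116 did, between -0.01 and 0.05. A pseudocount cannot turn the sign of a change. Among the rescalings, the largest shift of the median of all genes compared was 0.20, with TPM in LOVO-labelled cells. A change past the threshold could therefore not turn sign, so that count is no test of stability. The labels carry no replicate numbers, and the cell line, shared by an adherent and a spheroid library, was the block in limma. Depth limits CXCL1 in LOVO-labelled cells and CCL20 in every library.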
